A study of Mus musculus with 6 samples.

Results

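The genes described here encode the enzymes that make, recycle and break down purine and pyrimidine nucleotides. The members were taken from a fixed list of 43 genes, each read at the probe set with 1 gene symbol in the array annotation and, where a gene had several, the probe set with the highest mean over all 6 arrays. This found 39 of the 43, among 22180 genes measured. Pfas, Nme2 and Ak3 are named only on probe sets that carry several gene symbols, and Impdh2 is on no probe set with a name in that annotation, so these 4 were not analysed here.

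The cells were splenic CD4+ T cells of wild-type female C57BL/6 mice about 8 weeks old. All cells were first stimulated for 24 h with antibodies to CD3 and CD28 at 10 µg/mL each, which stand in for antigen and costimulation. They were then kept for a further 24 h with 100 µM icilin, a cooling agent known as an agonist of the ion channels TRPM8 and TRPA1, or with the solvent DMSO (vehicle). Each group had 3 arrays (Affymetrix Mouse Gene 2.0 ST), and the same 3 mice supplied cells to both groups. There was no unstimulated group, so these data compare icilin with vehicle in cells that were already activated.

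A resting T cell needs few nucleotides and covers most of that need by salvage, which returns free bases and nucleosides to the nucleotide pool. After activation, cells switch on de novo synthesis, in which the purine ring is built stepwise on phosphoribosyl pyrophosphate (PRPP) and the pyrimidine ring is built first and then joined to it. Ribonucleotide reductase then turns ribonucleotides into the deoxynucleotides used for DNA. Inborn loss of the salvage enzymes ADA or PNP causes immunodeficiency, and drugs against IMP dehydrogenase and dihydroorotate dehydrogenase are used to hold back lymphocyte growth.

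Across the pathway, the differences between icilin and vehicle were small. The 39 measured genes had log2 fold changes (icilin minus vehicle) of -0.30 to 0.38, and 2 passed the test, Adk and Ctps2, both higher with icilin. With limma, a gene passed at a Benjamini-Hochberg adjusted p under 0.1 over all genes. That is 2 of 39 members, where 5.28% of all genes passed (2.27% higher and 3% lower) and 9.02% of genes brighter than the median gene, a class that holds all 39 members. No member passed both limits of the study, this adjusted p and a change of at least 1.5-fold, which 1.4% of all genes did (0.37% higher and 1.03% lower). SAM, the study's own test, also called 0 members with both limits. At an unadjusted p under 0.05, 8 members were higher and 2 lower by limma, where 9.09% of all genes were higher and 8.05% lower, and 13.7% and 11.2% of the brighter ones.

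The spread between arrays was narrow enough to bound these differences in array signal. For each of the 39 genes the 95% interval of the log2 fold change, from limma's moderated spread and taken gene by gene, lay inside 1.5-fold in either direction (a log2 change of 0.58). That held for 89.2% of all genes and 91.9% of the brighter ones. Background signal shrinks the differences of dim genes, so the bound need not hold for the RNA of the dimmest members, such as Ak1, Cda and Pnp. The lowest bound was -0.50, for Upp1, and the highest 0.56, for Adk. The interval of Adk, and of no other member, reached past 1.5-fold with median-centred arrays or when icilin replicate 1, icilin replicate 2, vehicle replicate 1 or vehicle replicate 3 was left out. In a bulk sample, fewer cells that express a gene and less RNA of it per cell cannot be told apart.

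**Figure D1:**
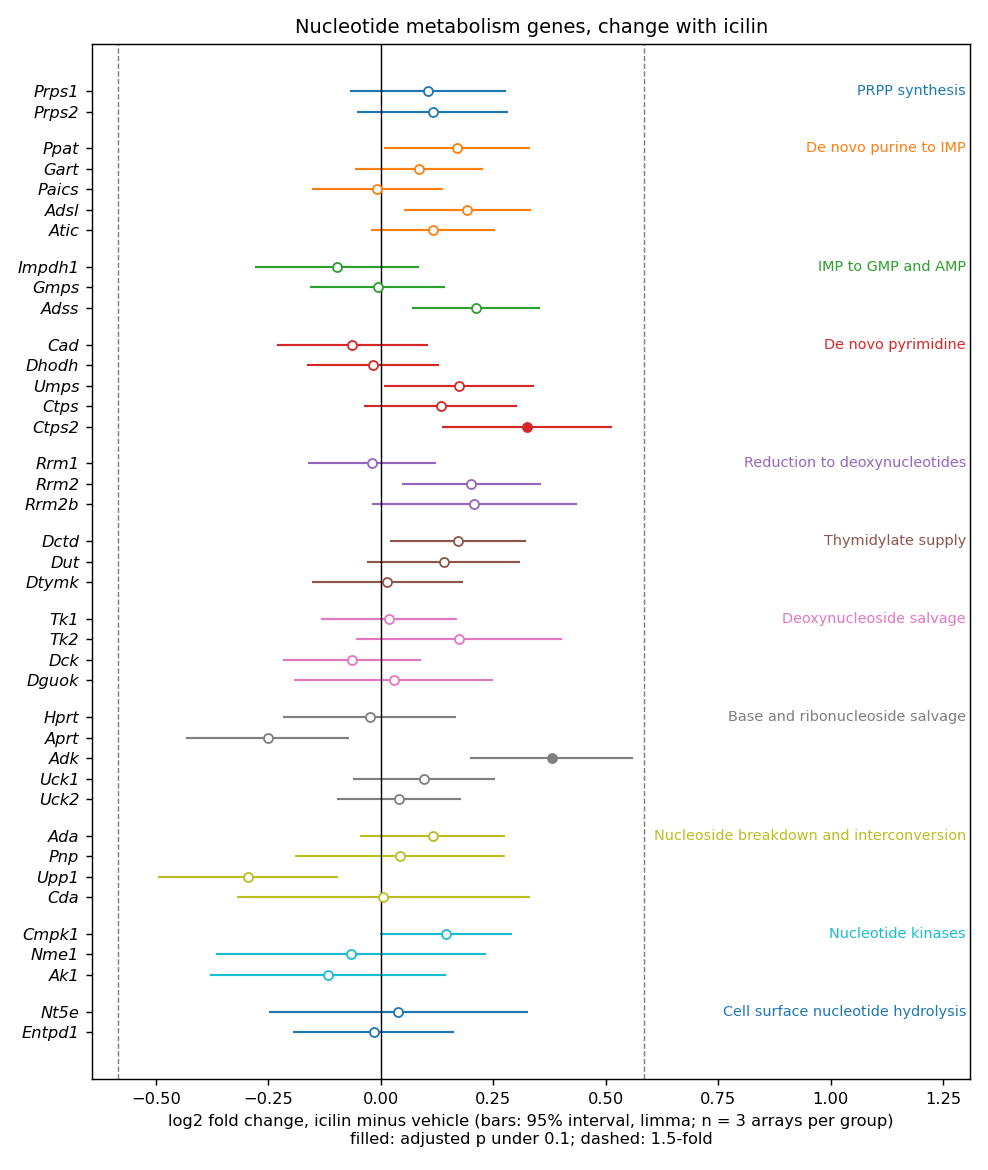
The log2 fold change (icilin minus vehicle) of the 39 measured genes by role, with 95% intervals from limma (3 arrays per group). Adk and Ctps2, the filled points, passed an adjusted p under 0.1, and every interval lies between the dashed lines at 1.5-fold.

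More members lay above 0 than below, 26 against 13, with a median of 0.04 where the median of all genes was 0.01. The share above 0 was 66.7% of the members, 53% of all genes and 55.4% of the brighter ones. With each array centred on its median it was 82.1% of the members and 59.6% of all genes, since 6 members within 0.03 of 0 turned sign (Dhodh, Entpd1, Gmps, Hprt, Paics and Rrm1). With quantile normalization it was again 66.7%, with Dtymk and Entpd1 turned. In 15 members the 3 icilin arrays all lay above the 3 vehicle arrays, which held for 13.6% of all genes and 21.6% of the brighter ones. In 2 members, Aprt and Upp1, they all lay below (10.5% of all genes, 15.1% of the brighter ones).

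PRPP synthetases make the activated sugar that both de novo and salvage routes use. Their genes Prps1 and Prps2 had log2 fold changes of 0.11 ± 0.07 and 0.12 ± 0.07 (SE, here and below). Prps2 had log2 levels of 8.45, 8.43 and 8.45 with icilin and of 8.36, 8.22 and 8.40 with vehicle (limma adjusted p = 0.477). The icilin arrays lay just above the vehicle arrays, by less than the vehicle arrays differed among themselves.

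In de novo purine synthesis up to IMP, 0 of 5 measured genes passed the test, and the median log2 fold change was 0.12. In 4 of the 5 the groups did not overlap, all higher with icilin, as in 13.6% of all genes and 21.6% of those brighter than the median gene. The member with the smallest p was Adsl, for adenylosuccinate lyase, which acts both on the way to IMP and on the way from IMP to AMP. Its log2 levels were 9.81, 9.81 and 9.83 with icilin and 9.65, 9.58 and 9.64 with vehicle, a log2 fold change of 0.19 ± 0.06 (limma adjusted p = 0.167). The icilin arrays lay close together and above all vehicle arrays. Ppat, for the amidotransferase that commits PRPP to purines, stood at 0.17 ± 0.07, Atic, for the enzyme of the closing steps to IMP, at 0.12 ± 0.06, and the trifunctional enzyme gene Gart at 0.09 ± 0.06. Paics, for the enzyme between them, stood at -0.01 ± 0.06, and its groups overlapped.

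Ppat and Paics are neighbours: in RefSeq (GRCm38.p6) their starts lie 276 bases apart on chromosome 5, on opposite strands, with overlapping first stretches. Ppat had log2 levels of 9.54, 9.56 and 9.59 with icilin and of 9.49, 9.33 and 9.35 with vehicle, whereas Paics had 9.98, 10.05 and 10.05 against 10.07, 10.01 and 10.02. This pair was picked after its values were seen, and the difference between them was not tested.

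The members' promoters were searched for the E-box that MYC and its partner MAX bind, because MYC is the best known driver of nucleotide enzyme genes in activated T cells. RefSeq windows (GRCm38.p6, from 250 bases before a gene's start to 50 after it) were held for 37 of the 39 members, 52 windows in all. The E-box CACGTG, a palindrome, stood in 5 of these windows (9.62%), belonging to 4 members, and in 7.15% of all 32851 windows. The matches are printed with 10 bases on either side and the E-box in capitals, to show that the flanking bases differ between them. They are at chr1:71557139-71557164 (plus strand) for Atic, chr1:93802067-93802092 (minus strand) for Dtymk, chr11:93968039-93968064 (minus strand) and chr11:93968275-93968300 (minus strand) for the 2 windows of Nme1, and chr5:76951089-76951114 (plus strand) for Paics, in that order:
Atic: acctcggggtCACGTGgggtcgacac
Dtymk: ctcgaacttcCACGTGaccagagcct
Nme1: cttgatacgcCACGTGggctcgcctt
Nme1: tgcggggaacCACGTGaggccgggga
Paics: cctcggaaagCACGTGgagggacctg

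The 4 members with an E-box had log2 fold changes of 0.12 (Atic), 0.01 (Dtymk), -0.07 (Nme1) and -0.01 (Paics), and none passed the test. Other motifs were searched on both strands of the same windows, and no motif searched contains another. The core TGATGNAA of elements bound by C/EBP and ATF factors stood in 1 member window (1.92%, Prps1) and in 3.97% of all windows. The E2F motif TTTGGCGC stood in 0 member windows and in 0.51% of all. The CCAAT motif of NF-Y stood in 17 member windows (32.69%) and in 37.41% of all. These are matches of letters, not sites shown to be bound.

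From IMP the route splits to GMP and to AMP, and 0 of 3 measured genes passed the test. Adss, for adenylosuccinate synthase on the AMP branch, had log2 levels of 9.69, 9.72 and 9.68 with icilin and of 9.44, 9.50 and 9.51 with vehicle. That is a log2 fold change of 0.21 ± 0.06 (limma adjusted p = 0.137), with all icilin arrays above all vehicle arrays. On the GMP branch the groups overlapped, with Impdh1, an isoform of IMP dehydrogenase, at -0.10 ± 0.08 and the GMP synthetase gene Gmps at -0.01 ± 0.06. Impdh2, for the other isoform, was not analysed, so these values do not cover IMP dehydrogenase as a whole. Adss and Adsl act in turn on the step from IMP to AMP.

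In de novo pyrimidine synthesis, Ctps2 rose and 4 of 5 genes did not pass. Ctps2 encodes a CTP synthase, which turns UTP into CTP. Its log2 levels were 7.47, 7.43 and 7.46 with icilin and 7.25, 6.99 and 7.15 with vehicle. This was a log2 fold change of 0.32 ± 0.08, or 1.25-fold (limma adjusted p = 0.0946), and the groups did not overlap. The call ended with quantile normalization, with SAM (a false discovery rate of 0.115), with the replicate number as a block (adjusted p = 0.169), with every probe set tested (0.223), and without any single array other than vehicle replicate 1 (0.190 to 0.232).

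The sister gene Ctps, whose product is the CTP synthase that proliferating T cells depend on, had log2 levels of 8.91, 8.88 and 8.91 with icilin and of 8.72, 8.88 and 8.70 with vehicle (0.13 ± 0.07, limma adjusted p = 0.414). The lowest icilin array equalled the highest vehicle array. The within-array difference between Ctps2 and Ctps changed by 0.19 on the log2 scale between the groups, by 0.06 without vehicle replicate 2 and by 0.27 without vehicle replicate 1. The exact permutation test gave p = 0.1, the smallest that 20 assignments of the arrays can give, and 0.6 adjusted over 6 pairs of related enzymes. The other pyrimidine genes were Umps, for the enzyme that makes UMP (0.17 ± 0.07, groups apart), Cad, for the enzyme of the opening steps (-0.06 ± 0.07), and Dhodh, for the mitochondrial dehydrogenase (-0.02 ± 0.06).

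Ribonucleotide reductase joins a large subunit, Rrm1, to a small one, which is Rrm2 in S phase and Rrm2b, a p53 target, outside it. None of the 3 genes passed. Rrm2 had log2 levels of 9.78, 9.82 and 9.82 with icilin and of 9.68, 9.56 and 9.58 with vehicle, a log2 fold change of 0.20 ± 0.07 (limma adjusted p = 0.179). The groups did not overlap. A second, dim probe set of Rrm2 differed by 0.48, also with groups apart, and with both averaged the gene passed (0.34 ± 0.07, adjusted p = 0.0417). Rrm2b stood at 0.21 ± 0.10 with overlapping groups, and Rrm1 at -0.02 ± 0.06. The difference between Rrm2b and Rrm2 changed by 0.01 (exact permutation p = 1, adjusted 1), with SDs of 0.05 over icilin and 0.11 over vehicle arrays.

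Thymidylate supply was measured by 3 genes, none past the test. Dctd, for the deaminase that turns dCMP into dUMP, had log2 levels of 8.39, 8.45 and 8.44 with icilin and of 8.32, 8.25 and 8.19 with vehicle (0.17 ± 0.06, limma adjusted p = 0.237). The groups lay apart. Dut, for the enzyme that removes dUTP, stood at 0.14 ± 0.07, and Dtymk, for thymidylate kinase, at 0.01 ± 0.07.

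For the kinases that salvage deoxynucleosides, 0 of 4 genes passed. Tk2, for the mitochondrial thymidine kinase, had log2 levels of 7.55, 7.61 and 7.61 with icilin and of 7.21, 7.52 and 7.51 with vehicle (0.17 ± 0.10, limma adjusted p = 0.424). Vehicle replicate 1 lay below the other arrays, and without it the difference was 0.07. The cytosolic S phase enzyme gene Tk1 stood at 0.02 ± 0.06, the deoxycytidine kinase gene Dck at -0.06 ± 0.07 and the mitochondrial deoxyguanosine kinase gene Dguok at 0.03 ± 0.09.

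**Figure D2:**
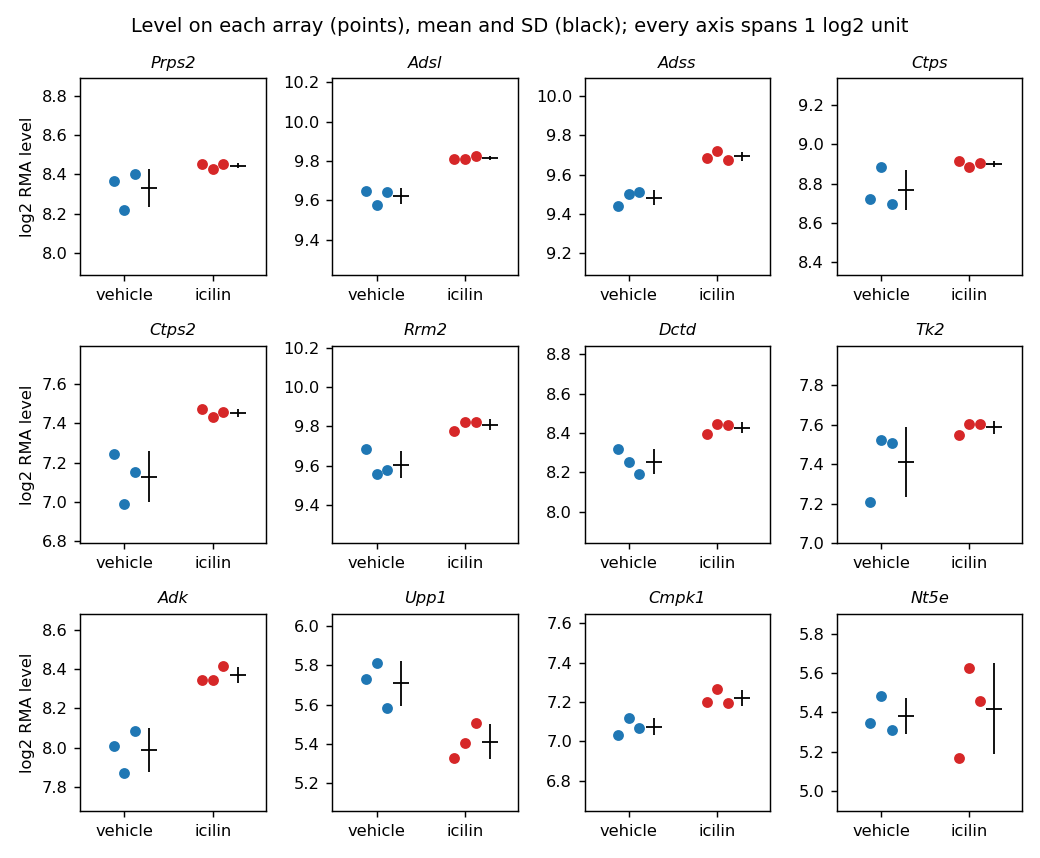
Log2 RMA level of 12 genes on each array, with vehicle in blue, icilin in red, and the mean and SD of 3 arrays in black; each axis spans 1 log2 unit around that gene's mean. The icilin points lie above the vehicle points in 9 panels and below them in that of Upp1, and the points of Ctps and Nt5e overlap.

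The salvage of bases and ribonucleosides held the largest rise among the members. Adk, for adenosine kinase, which clears adenosine by turning it into AMP, had log2 levels of 8.35, 8.34 and 8.42 with icilin and of 8.01, 7.87 and 8.09 with vehicle. The group means were 8.37 ± 0.04 and 7.99 ± 0.11 (SD, n = 3), a log2 fold change of 0.38 ± 0.08, or 1.30-fold (limma adjusted p = 0.0493). All icilin arrays lay above all vehicle arrays. Adk also passed SAM and each scaling tried. It did not pass with the replicate block (adjusted p = 0.114), with every probe set tested (0.143), or without any single array other than vehicle replicate 3 (0.113 to 0.154).

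As the member with the largest rise, Adk is shown with the 250 bases before each of its 2 RefSeq starts (GRCm38.p6, plus strand, at chr14:21052324-21052573 and chr14:21075902-21076151), with CCAAT in either orientation in capitals. The first stretch holds 2 matches and the other 1, and neither holds an E-box:
Adk, outer start: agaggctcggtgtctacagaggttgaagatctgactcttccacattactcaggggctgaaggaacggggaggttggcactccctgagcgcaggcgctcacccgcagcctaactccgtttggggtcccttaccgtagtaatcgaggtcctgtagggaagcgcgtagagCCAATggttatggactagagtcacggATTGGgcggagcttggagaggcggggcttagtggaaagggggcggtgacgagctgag
Adk, inner start: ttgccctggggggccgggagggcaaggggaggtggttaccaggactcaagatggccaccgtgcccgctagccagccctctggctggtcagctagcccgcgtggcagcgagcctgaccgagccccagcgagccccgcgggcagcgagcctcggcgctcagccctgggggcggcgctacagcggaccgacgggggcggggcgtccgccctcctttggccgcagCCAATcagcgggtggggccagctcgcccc

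The array values do not separate transcripts from these starts. The outermost of the 3 RefSeq starts of Ctps2 (chrX:162901310-162901559, plus strand), shown in the same way as the other gene that passed, has 0 matches to CCAAT. The second start, whose stretch overlaps it, also has 0, and the stretch before the innermost start holds 1, so Ctps2 counts among the members with this motif. The sequence shown is that of the outermost start:
Ctps2, outermost start: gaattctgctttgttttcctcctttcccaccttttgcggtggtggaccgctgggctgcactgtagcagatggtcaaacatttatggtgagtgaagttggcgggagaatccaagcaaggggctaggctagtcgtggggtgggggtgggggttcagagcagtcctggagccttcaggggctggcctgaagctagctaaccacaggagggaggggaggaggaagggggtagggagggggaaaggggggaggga

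The remaining genes of this salvage group did not pass. Aprt, for the enzyme that salvages adenine, was lower on all icilin arrays, with log2 levels of 8.70, 8.61 and 8.69 against 9.04, 8.85 and 8.86 (-0.25 ± 0.08, limma adjusted p = 0.158). It was chosen for these values after they were seen. Hprt, for the enzyme that salvages hypoxanthine and guanine, stood at -0.02 ± 0.08 with overlapping groups. The uridine-cytidine kinase genes Uck1 and Uck2 stood at 0.10 ± 0.07 and 0.04 ± 0.06. Thus the 2 adenine-related salvage genes lay on opposite sides of 0, and only the rise of Adk passed the test.

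Among enzymes that split or deaminate nucleosides, 0 of 4 genes passed. Upp1, for the uridine phosphorylase that frees uracil from uridine, had log2 levels of 5.33, 5.40 and 5.51 with icilin and of 5.73, 5.81 and 5.58 with vehicle. This was the lowest log2 fold change of the members, -0.30 ± 0.09 (limma adjusted p = 0.139), and the groups did not overlap. Ada, for adenosine deaminase, stood at 0.12 ± 0.07, the cytidine deaminase gene Cda at 0.01 ± 0.14 and the purine nucleoside phosphorylase gene Pnp at 0.04 ± 0.10. Pnp has a near-identical tandem copy in the mouse, so its signal is uncertain. Cda and Pnp were among the dimmest members, at brightness percentiles 51.5 and 52.7 of all genes.

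Of the nucleotide kinases, 0 of 3 measured genes passed. Cmpk1, for the kinase that phosphorylates UMP and CMP, had log2 levels of 7.20, 7.27 and 7.19 with icilin and of 7.03, 7.12 and 7.07 with vehicle (0.15 ± 0.06, limma adjusted p = 0.299), with groups apart. Nme1, for a nucleoside diphosphate kinase, stood at -0.07 ± 0.13 and the adenylate kinase gene Ak1, the dimmest member, at -0.12 ± 0.11. Nme1 and its neighbour Nme2 are near copies, so part of the Nme1 signal may come from Nme2.

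At the cell surface, ENTPD1 (CD39) strips ATP and ADP to AMP, and NT5E (CD73) turns AMP into adenosine. Neither gene passed. Nt5e had log2 levels of 5.17, 5.63 and 5.46 with icilin and of 5.35, 5.48 and 5.31 with vehicle (0.04 ± 0.12, limma adjusted p = 0.908), and the difference was -0.07 without icilin replicate 2. The icilin arrays spanned the whole range of the vehicle arrays. Entpd1 stood at -0.02 ± 0.08. In mouse both proteins are abundant on regulatory T cells. Of 4 genes listed as markers of those cells, Ctla4 fell (-0.69 ± 0.06, limma adjusted p = 0.00277), while Foxp3 (0.29 ± 0.08), Il2ra (-0.04 ± 0.06) and Ikzf2 (-0.04 ± 0.06) did not pass. The 4 genes stood at brightness percentiles 66.2 to 99.8 of all genes. All cells here were stimulated CD4+ T cells, and which of them held this RNA was not measured. The part of regulatory T cells in the members' values was not tested.

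Of 9 pairs of related enzymes, 6 had both genes measured, and the change of the within-array difference was tested in each by exact permutation, two-sided. Ctps2 against Ctps was the pair whose groups did not overlap. The difference was 0.16 for Tk2 against Tk1 (exact p = 0.3), 0.09 for Dguok against Dck (0.4), 0.01 for Prps2 against Prps1 (0.9) and -0.06 for Uck2 against Uck1 (0.5). These sizes moved by over 1.5 times with single arrays: the Tk difference was 0.05 without vehicle replicate 1. The Dguok difference was 0.06 without icilin replicate 2, 0.14 without icilin replicate 3, and 0.05, 0.19 and 0.04 without vehicle replicates 1, 2 and 3. The Uck difference was -0.11 without icilin replicate 1, -0.01 without icilin replicate 3 and -0.02 with quantile normalization. Adjusted over the 6 pairs, p was 0.6 for the Ctps pair, 0.75 for the Tk, Uck and Dck pairs and 1 for the Rrm2 and Prps pairs. With 3 arrays against 3 no pair could reach a p under 0.1, so these tests do not show that the partners moved alike.

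Genes next to the members in the same pathways were counted in the same way. Of 63 such genes on a list of these pathways, 51 were measured; 4 rose, 1 fell and 46 did not pass, with a median log2 fold change of 0.04. The 5 that passed are 9.8% of these genes, where 5.28% of all genes and 9.02% of brighter genes passed. Of the 51, 38 were brighter than the median gene, so neither share is an exact match for this list. In the supply of thymidylate and folate-bound carbon units, which purine and thymidylate synthesis consume, 2 of 10 genes rose and 9 had log2 fold changes above 0 (median 0.16). For all genes, 2.27% passed as higher and 53% lay above 0, and for the brighter ones 3.89% and 55.4%. Aldh1l2, for the mitochondrial formyltetrahydrofolate dehydrogenase, had log2 levels of 6.74, 6.83 and 6.93 with icilin and of 5.37, 5.13 and 5.58 with vehicle. Its log2 fold change of 1.47 ± 0.12 (limma adjusted p = 0.00178) was the sole one of the 51 to pass 1.5-fold as well. Mthfd2, for the mitochondrial enzyme that oxidises methylenetetrahydrofolate, rose from 10.00 ± 0.07 to 10.29 ± 0.03 (SD, n = 3), or 0.29 ± 0.07 (adjusted p = 0.0778). Tyms, for thymidylate synthase, stood at 0.17 ± 0.06 (adjusted p = 0.233).

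Among 19 genes of nucleotide breakdown and pool clean-up, 2 rose and 0 fell. That is 10.53%, where 5.28% of all genes and 9.02% of brighter genes passed in either direction. Samhd1, for the hydrolase that breaks down deoxynucleoside triphosphates, had log2 levels of 10.68, 10.72 and 10.67 with icilin and of 10.39, 10.26 and 10.22 with vehicle (0.40 ± 0.07, limma adjusted p = 0.0298). Nt5c2, for the cytosolic nucleotidase that acts on IMP and GMP, had 8.36, 8.40 and 8.44 against 8.08, 8.05 and 8.07 (0.33 ± 0.06, adjusted p = 0.0323). Neither set of groups overlapped. Of 14 nucleotide kinases and recycling enzymes outside the list, Ak4 fell and no other passed (7.14%, beside the same shares). Ak4, for a mitochondrial adenylate kinase known as a target of hypoxia-inducible factor, had log2 levels of 7.70, 7.67 and 7.72 with icilin and of 8.24, 8.16 and 8.15 with vehicle (-0.49 ± 0.06, adjusted p = 0.00966). None of 7 nucleoside transporter genes passed, nor did Adora3, the one adenosine receptor gene measured of 4. At an unadjusted p under 0.05, limma had 1 transporter gene higher and 0 lower and did not have Adora3, and SAM called none of the 8. Of all genes, 9.09% were higher and 8.05% lower at that unadjusted p.

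**Figure D3:**
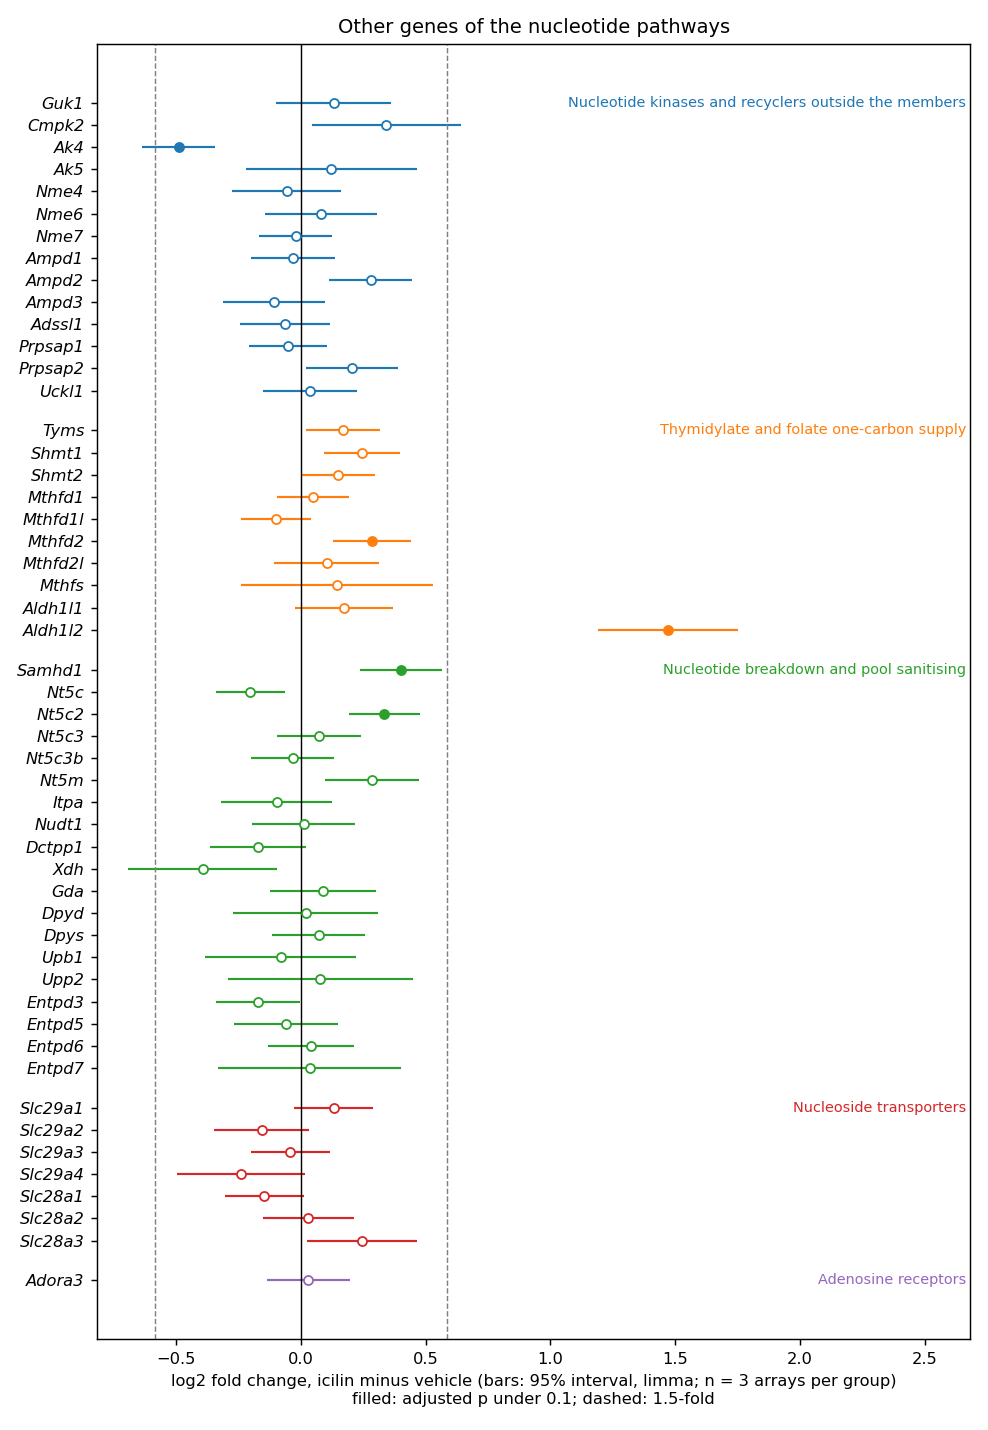
The log2 fold change (icilin minus vehicle) of 51 genes of the same pathways outside the member list, with 95% intervals from limma (3 arrays per group) and 1.5-fold dashed. Aldh1l2 stands alone at 1.47; Mthfd2, Samhd1 and Nt5c2 are the other filled points above 0 and Ak4 is the filled point below 0.

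S phase and MYC network genes were counted beside the members, since Rrm2, Tk1 and Dut follow the cell cycle and many nucleotide genes follow MYC. Of 17 measured S phase genes, Cdc6, a replication licensing gene, rose (0.34 ± 0.08, limma adjusted p = 0.0956, just under the limit of 0.1). In 16 of the 17 the log2 fold change was above 0, and the median was 0.07. Among genes brighter than the median gene, a class that holds all 17, 3.89% passed as higher and 55.4% lay above 0 (2.27% and 53% of all genes). The proliferation marker gene Mki67 stood at -0.01. Of 12 MYC network genes, Mxi1, for a MYC antagonist, fell (-0.77 ± 0.07, adjusted p = 0.00251) and the median was 0.00. Mxi1 was the sole one to pass (8.33%), where 5.28% of all genes and 9.02% of brighter genes passed. Myc itself had log2 levels of 10.62, 10.53 and 10.57 with icilin and of 10.73, 10.67 and 10.68 with vehicle (-0.12 ± 0.06, adjusted p = 0.385), lower on all icilin arrays. Whether these genes have a part in the members' values was not tested.

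The label of the cells was checked against marker genes. The 7 measured of 8 CD4 T cell markers stood at brightness percentiles 92.6 to 99.7 of all genes, with mean log2 levels of 10.4 to 10.5 with icilin and 10.3 to 10.4 with vehicle. Of these, Cd28 rose (0.34 ± 0.07, limma adjusted p = 0.0529). All 7 myeloid and dendritic cell markers were dimmer than the median gene (percentiles 19.9 to 41.5), with mean levels of 3.39 to 3.55 against 3.46 to 3.51. For 4 measured B cell markers the mean was 5.14 to 5.20 against 4.79 to 4.94, with Ms4a1 higher by 1.01 ± 0.10. Of these 4, 3 were brighter than the median gene, at percentiles up to 60.7. For 6 markers of CD8 T and natural killer cells the mean was 4.23 to 4.34 against 4.20 to 4.31. Of these 6, 2 were brighter than the median gene, at percentiles up to 70.4 (Cd8b1). In that list Eomes passed as higher (0.67 ± 0.07) and Klrd1 as lower (-0.27 ± 0.06). The largest fall, that of Klrb1c (-0.52 ± 0.15), did not pass. The part of these cells in the members' values was not tested.

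The number of members that passed was 3 with probe sets averaged, Rrm2 being added, and larger still under 2 other settings. With limma's intensity trend and robust prior variance together, 11 members passed, 9 higher (Adk, Adsl, Adss, Atic, Ctps2, Dctd, Ppat, Rrm2 and Umps) and 2 lower (Aprt and Upp1). That is 28.21% of the members, where 11.82% of all genes passed. All 39 members are brighter than the median gene, and the share of such genes that passed under this setting was not counted. With genes dimmer than the median left out, which changes both the prior variance and the number of genes adjusted over (11090 in place of 22180), 10 members passed (25.64%, against 23.11% of the genes then tested), the same 11 without Atic. The sizes of the changes are those given above in both cases, and no member reached 1.5-fold.

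**Figure D4:**
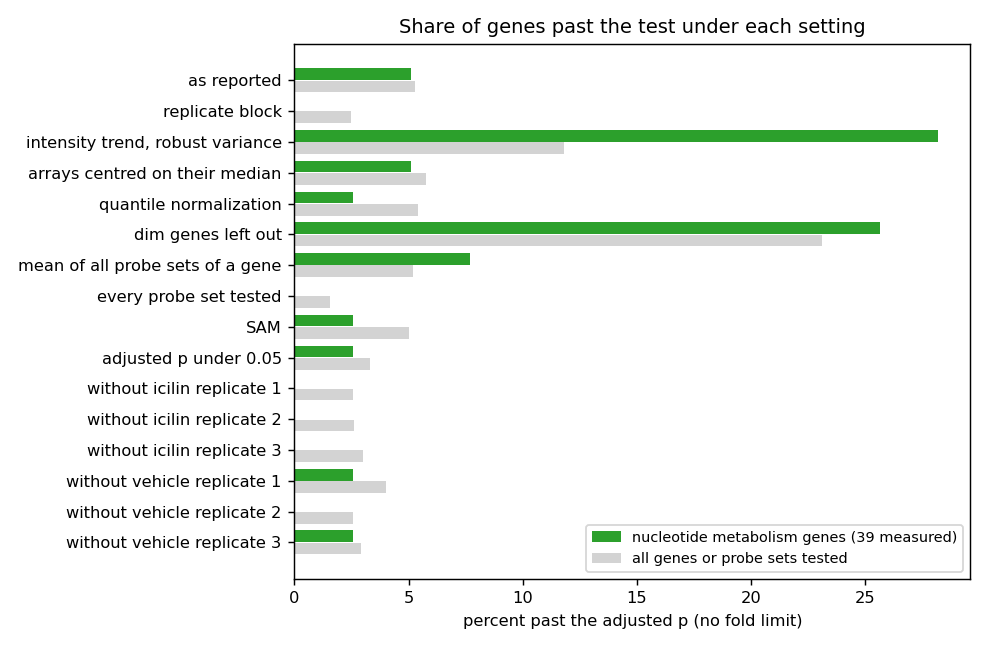
Percent of the 39 measured members (green) and of all genes or probe sets tested (grey) past the adjusted p, with no fold limit, under each setting. The share of members stands at 28.21% with the intensity trend and robust variance together and at 25.64% with dim genes left out, and at 7.69% or less under the other settings.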

How the data were processed

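Both the members and the gene lists were chosen with earlier results of these data known. Values are log2 intensities as deposited, normalized by the authors with Robust Multi-Array Average (RMA), per the labels. Because RMA equalises the arrays, it would hide a change shared by most genes, and background signal shrinks the differences of dim ones. Array medians were 4.24 to 4.30. The genome build behind the probe annotation is not given in the sources used here. Of 41345 probe sets, 23521 have 1 gene symbol, 1814 several and 16010 none; the first kind gave 22180 genes.

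Icilin was compared with vehicle over all 6 arrays by a two-sided limma test (version 3.58.1, R 4.3.3; lmFit, then eBayes with 1 prior variance). The fit had 4 residual degrees of freedom and a prior worth 3.07. The number of arrays limits precision: the median SE was 0.09. The limits, an adjusted p of 0.1 and 1.5-fold, are the study's. SAM was written anew with symmetric limits. It and limma were run on simulated arrays drawn independently of each other. How well changes as small as those of the members were recovered is not reported here. Replicate numbers were not used as pairs: the labels do not tie a number to a mouse.

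Every member is named. Values on all arrays are given for members past the adjusted p, for their paired enzymes and, in a role group with none, for the member with the smallest p. Of the other pathway genes, those past the adjusted p are named; others are named as chosen after their values were seen. Promoter windows are from RefSeq (GRCm38.p6). Alternatives were the replicate block, an intensity trend with robust variance, centring, quantile normalization, dim genes left out, the mean of probe sets, every probe set, SAM, an adjusted p under 0.05 and leaving out each array. The 95% intervals and the comparison with brighter genes were added after the values were seen. Tables were made with pandas 2.3.3 and numpy 2.4.6, and plots with matplotlib 3.10.9 (Python 3.11.15).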

Additional observations from a re-analysis of the deposited data

How the results depend on the processing

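The number of members past the adjusted p was 2. It was 0 with the replicate number as a block and with every probe set tested; 1 with quantile normalization, SAM or an adjusted p under 0.05 (Adk in each); 3 with probe sets averaged, Rrm2 being added; 10 with dim genes left out; 11 with the intensity trend and robust variance together; and 0 to 1 with single arrays left out. The number called with 1.5-fold was 0 under every alternative run. The median log2 fold change of the members, 0.0435, was 0.0690 with arrays centred, 0.0709 with quantile normalization, and 0.0444 to 0.0949 with single arrays left out. The median of all genes, 0.0111, was 0.0367 with arrays centred, 0.0088 with quantile normalization, and 0.0095 to 0.0144 with single arrays left out. Over the 15 members with alternatives tabulated one by one, 190 of 225 values kept direction and side of the limit, 17 lost the call, 17 gained one and 1 changed sign (Nt5e, -0.0655 without icilin replicate 2 and -0.0655 to 0.163 over the arrays left out). The difference between Rrm2b and Rrm2 changed sign with probe sets averaged (-0.135) and with single arrays left out (-0.0445 to 0.0604), and that between Prps2 and Prps1 with single arrays left out (-0.0350 to 0.0546). Same-numbered arrays did not deviate together (r -0.02 to -0.01 across genes), so the numbers give no evidence of pairing; under the block, the Ctps2 and Ctps difference of 0.191 had p = 0.25 by exact sign flips, the smallest that 3 pairs can give. Over all genes, 43.1% of those past the adjusted p were higher, and 53.4% with arrays centred, 31.9% with the block and 54.9% with the trend and robust variance; 1170 passed, against 2621 with the trend and robust variance, 2563 with dim genes left out, 552 with the block, 649 with every probe set, 734 at an adjusted p under 0.05 and 571 to 890 with single arrays left out. For genes outside the members the alternatives are not given one by one, so calls near the limit (Cdc6, Mthfd2 and Cd28) may not hold under them. Low signal limits Cda, Pnp and Ak1, which lie just above the median gene.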
